A study of Rattus norvegicus with 20 samples.

Results

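The stretch-response ankyrin and Xin genes described here are Ankrd1, Ankrd2, Ankrd23, Csrp3, Xirp1, Xirp2, Nrap and Fhl1, which were taken by their symbols from the 32495 named genes of the count table. Each of the 8 symbols matched a single gene, and all 8 passed the filter on low counts, which left 11716 genes to test. The counts came from stranded, rRNA-depleted total RNA of gastrocnemius, a calf muscle, in 20 libraries from female Fischer 344 rats. Every rat carried the transplanted Ward colorectal carcinoma, so no group was free of tumour. TUMOUR STD rats (5 libraries) ate the standard diet and received no drug. CHEMO STD rats (7 libraries) ate the same diet and received irinotecan followed by 5-fluorouracil in repeated cycles. CHEMO FO rats (8 libraries) received the same drugs and changed to a diet with fish oil, a source of EPA and DHA, when the drugs began. The methods give the age of the rats without a unit. CHEMO STD 1 and 2 bear library names with the same stem, and their counts differed far less (chi-square per gene 2.23) than those of any of the 58 remaining within-group pairs (13.7 to 255). Their counts were therefore summed into 1 sample, CHEMO STD 1+2, which leaves 19 samples in groups of 5, 6 and 8.

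In striated muscle, a set of proteins at the Z-disc, the titin spring of the I-band and the attachment of fibres to tendon changes in amount when the muscle is loaded, stretched or denervated. The muscle ankyrin repeat proteins are encoded by Ankrd1 (CARP), Ankrd2 (Arpp) and Ankrd23 (DARP), which bind the spring region of titin and can also be found in the nucleus. Csrp3 encodes muscle LIM protein of the Z-disc, and Fhl1 encodes a LIM protein of the sarcomere that is abundant in skeletal muscle. Xirp1 (Xin) and Xirp2 are actin-binding repeat proteins of the myotendinous junction and of damaged or remodelling fibres, and Nrap is a nebulin-related anchoring protein that takes part in myofibril assembly.

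Sequence upstream of the start site was held for 5 of the 8 genes in the RefSeq windows of rat build GRCr8, and the genes without an entry were Ankrd1, Csrp3 and Nrap. The 250 bases before the start are shown for Ankrd2 and Xirp1, which passed the thresholds in a comparison below, and for Xirp2 and Ankrd23, whose lowest levels fell in the same samples. They lie at chr1:250796169-250796418 (plus strand), chr8:128635012-128635261 (minus strand, the first of 3 windows of Xirp1), chr3:72533936-72534185 (plus strand) and chr9:46274511-46274760 (minus strand). Capitals mark matches on either strand to the E-box CANNTG, the MCAT element GGAATG, and the MEF2 and CArG elements, which are known binding sequences of myogenic basic helix-loop-helix, TEAD, MEF2 and SRF factors.
Ankrd2: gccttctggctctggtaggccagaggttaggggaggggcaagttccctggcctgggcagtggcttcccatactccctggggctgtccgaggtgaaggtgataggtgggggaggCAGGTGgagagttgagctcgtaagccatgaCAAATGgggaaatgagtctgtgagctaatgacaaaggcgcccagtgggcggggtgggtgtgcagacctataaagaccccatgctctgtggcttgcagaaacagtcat
Xirp1: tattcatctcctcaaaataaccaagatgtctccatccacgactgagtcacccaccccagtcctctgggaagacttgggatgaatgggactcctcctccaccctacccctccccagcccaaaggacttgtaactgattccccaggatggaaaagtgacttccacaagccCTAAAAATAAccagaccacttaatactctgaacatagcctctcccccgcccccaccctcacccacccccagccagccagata
Xirp2: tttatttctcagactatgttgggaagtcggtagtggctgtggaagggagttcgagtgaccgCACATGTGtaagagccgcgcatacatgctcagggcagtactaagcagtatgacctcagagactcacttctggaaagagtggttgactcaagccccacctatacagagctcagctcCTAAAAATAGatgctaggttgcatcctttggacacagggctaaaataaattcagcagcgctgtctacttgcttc
Ankrd23: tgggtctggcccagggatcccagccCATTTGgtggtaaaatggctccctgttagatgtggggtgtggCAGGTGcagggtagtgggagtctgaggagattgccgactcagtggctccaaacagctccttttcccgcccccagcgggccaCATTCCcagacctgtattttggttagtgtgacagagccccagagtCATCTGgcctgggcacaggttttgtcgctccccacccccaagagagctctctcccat
The Ankrd2 window held 2 E-boxes, which began 137 and 107 bases before the start. Xirp1 held a MEF2 match 82 bases before the start, and Xirp2 held a MEF2 match at 74 bases beside 2 overlapping E-boxes at 189 and 187 bases. Ankrd23 held 3 E-boxes and an MCAT match at 102 bases, the only MCAT match in the 8 windows of these genes. Fhl1 had 2 windows, of which the first held a CArG match at 102 bases. Among all 33469 windows of this length, 65.5% held an E-box, 12.1% MCAT, 2.96% MEF2 and 1.5% CArG, and the windows of these genes held them in 6, 1, 3 and 1 of 8 cases, of which 2 MEF2 cases are overlapping windows of Xirp1.

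Library totals over named genes were 5422118 to 10857477 counts in TUMOUR STD, 3020821 to 10516783 in CHEMO STD and 3035841 to 9119394 in CHEMO FO. Fast fibre genes identified the tissue, with a summed level of 110000 to 210000 CPM (counts per 1e+06 counts of a library, on TMM-scaled library sizes) over 8 genes. Of 9 heart genes listed, Nppa, Nppb and Myl7 had 0 counts in every sample, Tnni3, Mybpc3 and Tnnt2 had at most 2, 4 and 18, and Myh6, Actc1 and Myl4 had 208 to 1640, 78 to 891 and 50 to 485 counts. A pair of samples was treated separately. CHEMO FO 18 had 63 genes at least 4-fold above and 133 at least 4-fold below the median of its group among 7481 well-expressed genes, against 0 to 12 and 0 to 10 in the other samples. It had the highest summed macrophage level (736 CPM, others of its group 191 to 303) and the lowest fast fibre (110000 CPM) and smooth muscle (229 CPM) levels of its group. The macrophage genes did not all follow their sum. Cd163 and Mrc1 stood at 273 and 167 CPM in CHEMO FO 18, against at most 63 and 56.4 CPM in the others of its group. Adgre1 was the lowest of its group there (7.54 CPM), and Csf1r (54.3 CPM) lay within the range of the others. Synpo2 held 127 CPM of the smooth muscle sum, against 453 to 783 CPM in the others of its group. Myh11 (35.3 CPM) and Mylk (22.4 CPM) lay just below the lowest of the others (36.6 and 26.1 CPM). Lmod1 (14.5 CPM) and Smtn (6.82 CPM) lay further below (lowest of the others 68.5 and 21.2 CPM). TUMOUR STD 10 had a summed keratinocyte level of 546 CPM, against 2.45 to 115 CPM in the 18 others. Results that rest on this pair of samples are given with and without them. CHEMO STD 1+2 also differed from its group. The chi-square per gene of CHEMO STD 1 was 53.4 to 122 against CHEMO STD 3 to 7, and 13.7 to 50.2 among the latter. Leaving out CHEMO STD 1+2 moved the genes called in CHEMO STD against TUMOUR STD from 279 to 603. Ankrd2 was still the 1 of the 8 genes called there. In whole muscle, fewer cells of a type and less RNA per cell cannot be told apart.

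**Figure D1:**
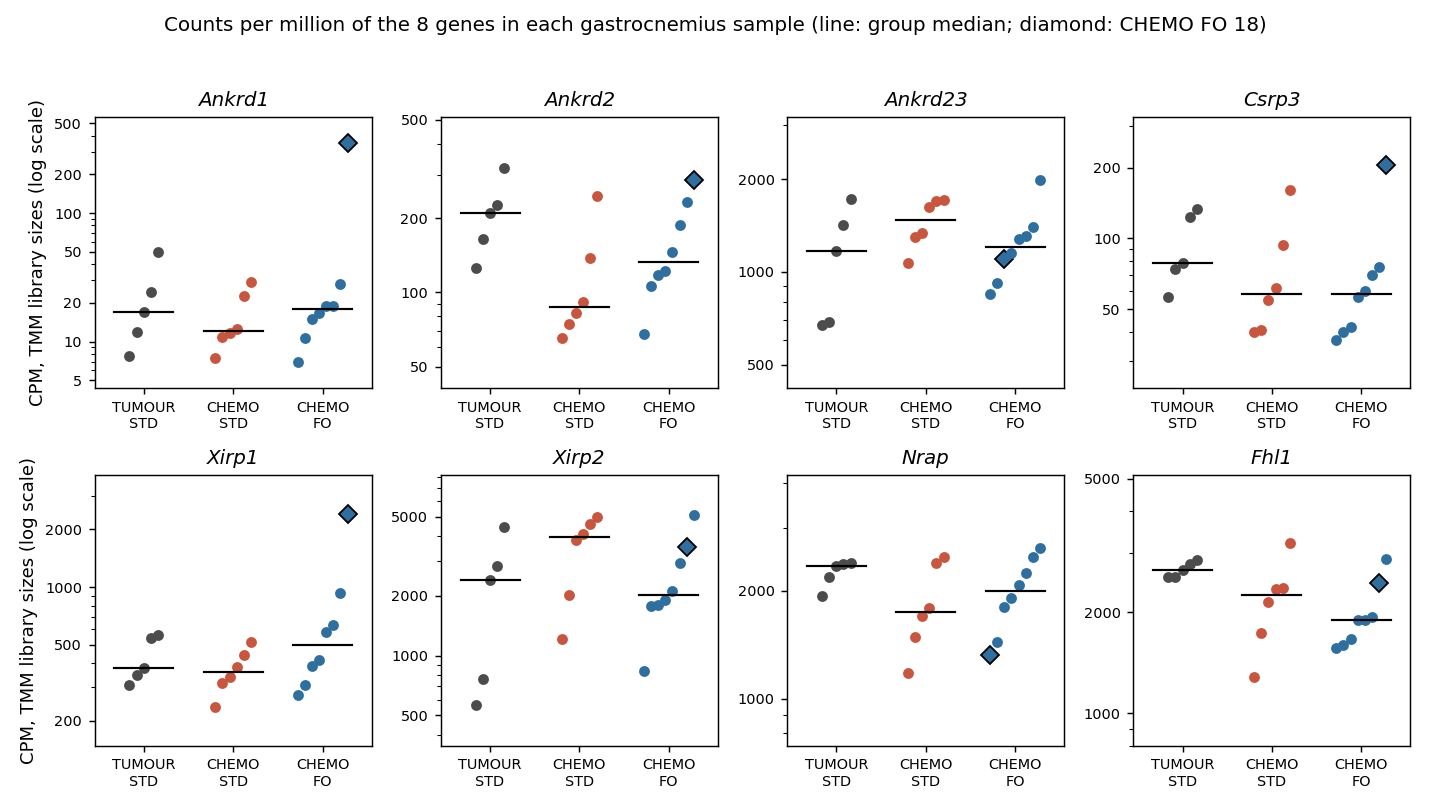
Level of each of the 8 genes in every sample, in CPM on TMM library sizes (y axis, log scale), by group (x axis); each point is a sample, the line is the group median and the diamond is CHEMO FO 18. The groups overlap for every gene, and CHEMO FO 18 lies at 348 CPM for Ankrd1 and 2410 CPM for Xirp1, above all other samples.

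The question of the first comparison was what chemotherapy changed in muscle on the standard diet. In CHEMO STD against TUMOUR STD, Ankrd2 was lower, at 116 ± 67.9 CPM (SD, n = 6) against 209 ± 73.3 CPM (n = 5), and it was the 1 of the 8 genes that passed an unadjusted p below 0.05 with a change of at least 1.5-fold. Of all genes tested, 2.38% passed the same thresholds. No gene passed an adjusted p below 0.05 (0% of those tested, with 762 genes at an unadjusted p below 0.05 in edgeR's quasi-likelihood test, and 0 adjusted calls by DESeq2, or 8 with its outlying counts kept). For 6 of the 8 genes the fitted difference was negative and for 2 positive, with a median log2 fold change (log2 FC) of -0.3, beside -0.002 over all genes tested. The CPM ranges overlapped between the groups for each of the 8 genes, whereas 0.495% of all genes had ranges that did not overlap.

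In the diet comparison, CHEMO FO against CHEMO STD, Ankrd1 and Xirp1 passed the same thresholds with higher levels in CHEMO FO, 2 of 8 genes beside 1.66% of all genes tested. Both calls rested on CHEMO FO 18, and without that sample none of the 8 genes was called. The differences were positive for 4 genes and negative for 4, with a median log2 FC of 0.05 beside -0.006 over all genes. No gene passed an adjusted p below 0.05 (0%, with 528 at an unadjusted p below 0.05 in edgeR and 0 adjusted calls by DESeq2, or 8 with outlying counts kept). Ranges overlapped for all 8 genes, and 0.0683% of all genes had ranges apart.

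In CHEMO FO against TUMOUR STD, which differ in both drugs and diet, none of the 8 genes was called, beside 3.6% of all genes. The differences were positive for 4 and negative for 4 genes, with a median log2 FC of -0.02 beside 0.002 over all genes. Fhl1 alone among the 8 had p below 0.05 before adjustment, at less than 1.5-fold. No gene passed an adjusted p below 0.05 in edgeR (0%, with 1059 at an unadjusted p below 0.05), and DESeq2 gave 12 adjusted calls, or 14 with outlying counts kept. Again no member had ranges apart, beside 0.324% of all genes. The 3 comparisons share their groups, so their values are set side by side and not combined. The library names are a number with the letters VM, except for CHEMO STD 1 and 2, which are named 1MB and 1MBd. Nothing in the labels says what the letters mean or how else the libraries of a group were separated. The p-values judge differences in group means against the spread between these samples.

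**Figure D2:**
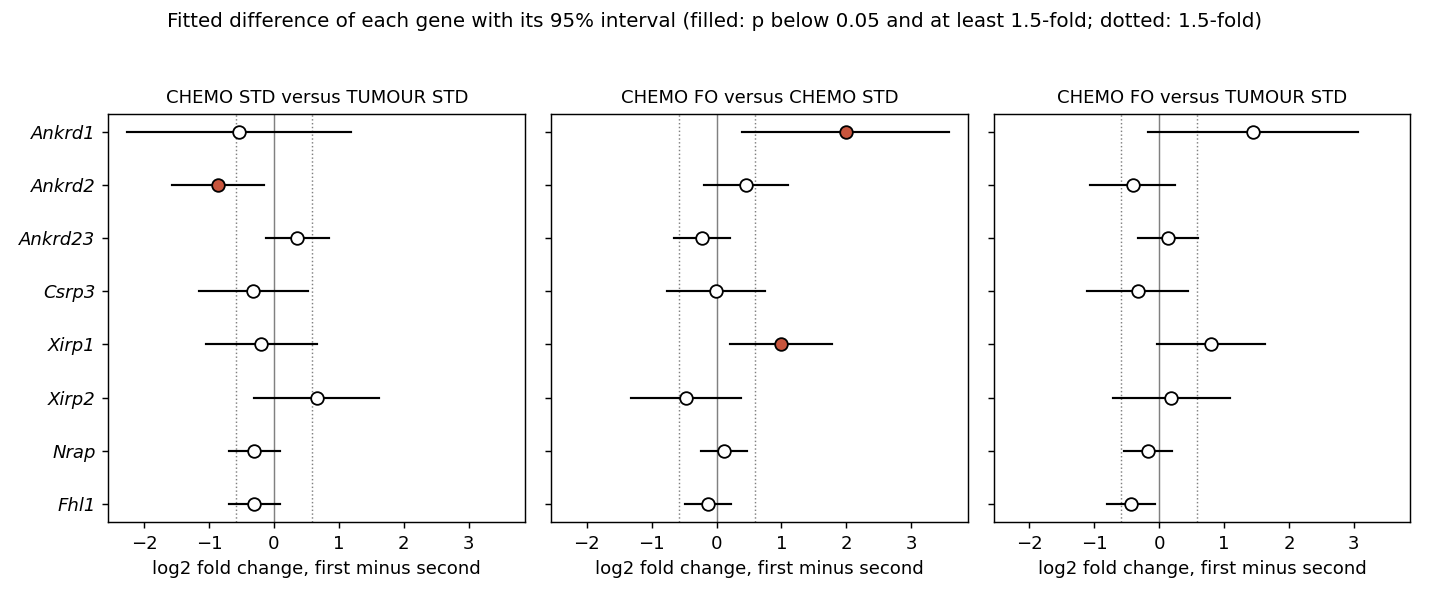
Fitted log2 fold change (x axis, first group minus second) of each gene (y axis) in the 3 comparisons, with bars for the 95% interval; filled points passed an unadjusted p below 0.05 with at least 1.5-fold, and dotted lines mark 1.5-fold. Ankrd2 is filled in the first panel, Ankrd1 and Xirp1 in the second, and no gene in the third.

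Among the titin-binding ankyrin genes, Ankrd2 is best known from slow fibres and from stretched muscle. In TUMOUR STD its level was 210, 165, 320, 126 and 226 CPM in samples 8 to 12. In CHEMO STD it was 74.4 CPM in sample 1+2 and 138, 65.5, 245, 82.5 and 91.3 CPM in samples 3 to 7, and in CHEMO FO it ran from 68 to 284 CPM with a median of 133 CPM. CHEMO STD thus had 4 of 6 samples below the lowest TUMOUR STD sample, while CHEMO STD 5 lay above 4 of the 5. The log2 FC was -0.86 (SE 0.343, 95% interval -1.57 to -0.15), and the adjusted p in edgeR was 0.719. Compared by an exact permutation test (two-sided), mean log2 CPM differed by -0.94 with p = 0.0411. It was 1 of 24 such tests, which were not adjusted over these genes alone. The call was lost without TUMOUR STD 10, at a log2 FC of -0.65, and it held with each other sample left out, where the log2 FC ran from -1.22 to -0.74. These include the CHEMO FO samples, which are outside this comparison and left the log2 FC at -0.86 or -0.85. The unadjusted p in edgeR was 0.0487 without CHEMO STD 4 and 0.047 without CHEMO STD 1+2.

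Slow fibre genes stood lower in the same comparison as Ankrd2. Their summed level over 9 genes was 8310 to 16500 CPM in TUMOUR STD and 6740 to 11100 CPM in CHEMO STD, and within these groups TUMOUR STD 10 and CHEMO STD 5, the samples with the highest Ankrd2, were also the highest. In CHEMO FO the highest Ankrd2 level, 284 CPM, was that of CHEMO FO 18, whose slow fibre level of 5960 CPM was near the lowest of its group (5640 CPM). All 9 had a negative difference (median log2 FC -0.36), and Myh7, the slow myosin heavy chain, and Atp2a2, the slow calcium pump, were called lower, at -0.94 (adjusted p = 0.719 in edgeR) and -0.62 (0.719). Both calls held without TUMOUR STD 10. Myh7 was also called lower in CHEMO FO than in TUMOUR STD (-0.61), but not without TUMOUR STD 10 or without CHEMO FO 18. The part of slow fibre content in the Ankrd2 difference was not tested. Between CHEMO FO and CHEMO STD, Ankrd2 gave a log2 FC of 0.45 (interval -0.19 to 1.1, adjusted p = 0.974 in edgeR), and it passed the thresholds without CHEMO STD 5, at 0.81. Between CHEMO FO and TUMOUR STD it gave -0.41 (-1.07 to 0.25, adjusted p = 0.701). In order of mean level, TUMOUR STD, CHEMO FO and CHEMO STD followed each other, and neither pair of neighbours differed beyond its spread.

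Ankrd1 is a gene with a low level in resting skeletal muscle and a large response to injury and denervation. As a ratio of highest to lowest, its range was the widest of the 8 over the 19 samples, from 6.95 to 348 CPM. In TUMOUR STD samples 8 to 12 had 24.2, 11.8, 7.67, 49.5 and 17 CPM. CHEMO STD 1+2 and 3 to 7 had 7.42, 22.6, 12.6, 28.9, 11.6 and 10.8 CPM. In CHEMO FO 7 samples lay between 6.95 and 28.1 CPM, and CHEMO FO 18 had 348 CPM from 3828 counts, 19.6 times the group median. Apart from that sample the 3 groups overlapped, and TUMOUR STD 11 was the highest of the rest. The group mean of 57.9 ± 117 CPM (n = 8) in CHEMO FO against 15.7 ± 8.27 CPM in CHEMO STD gave a log2 FC of 1.99 (SE 0.77, 95% interval 0.39 to 3.58), with an adjusted p of 0.974 in edgeR. The exact permutation test of log2 CPM gave a difference of 0.67 with p = 0.477.

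Without CHEMO FO 18 the log2 FC of Ankrd1 between the diets was 0.12 and the thresholds were not passed, and DESeq2, which replaces such an outlying count by default, gave 0.09. Against TUMOUR STD, the sign itself turned with that sample, from 1.45 (interval -0.18 to 3.07, adjusted p = 0.573 in edgeR) to -0.42 without it. That difference passed the thresholds without TUMOUR STD 11, at 1.99, and without CHEMO FO 20, at 1.63. The difference between CHEMO STD and TUMOUR STD was -0.54 with a wide interval of -2.26 to 1.19. It was 0.01 without TUMOUR STD 11, the highest sample of its group.

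CHEMO FO 18 was set apart in much more than these genes. Ranked by distance above the median of the other 7 samples of its group, Ankrd1 was the third gene and Xirp1 the 25th of 7481. The first was Mt2A, a metallothionein. Trim63 (MuRF1) and Fbxo32 (atrogin-1), the ubiquitin ligases of muscle atrophy, stood at 2590 and 1870 CPM, against 194 to 415 CPM and 171 to 650 CPM in the 7 others. The part of these in the Ankrd1 and Xirp1 values was not tested.

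**Figure D3:**
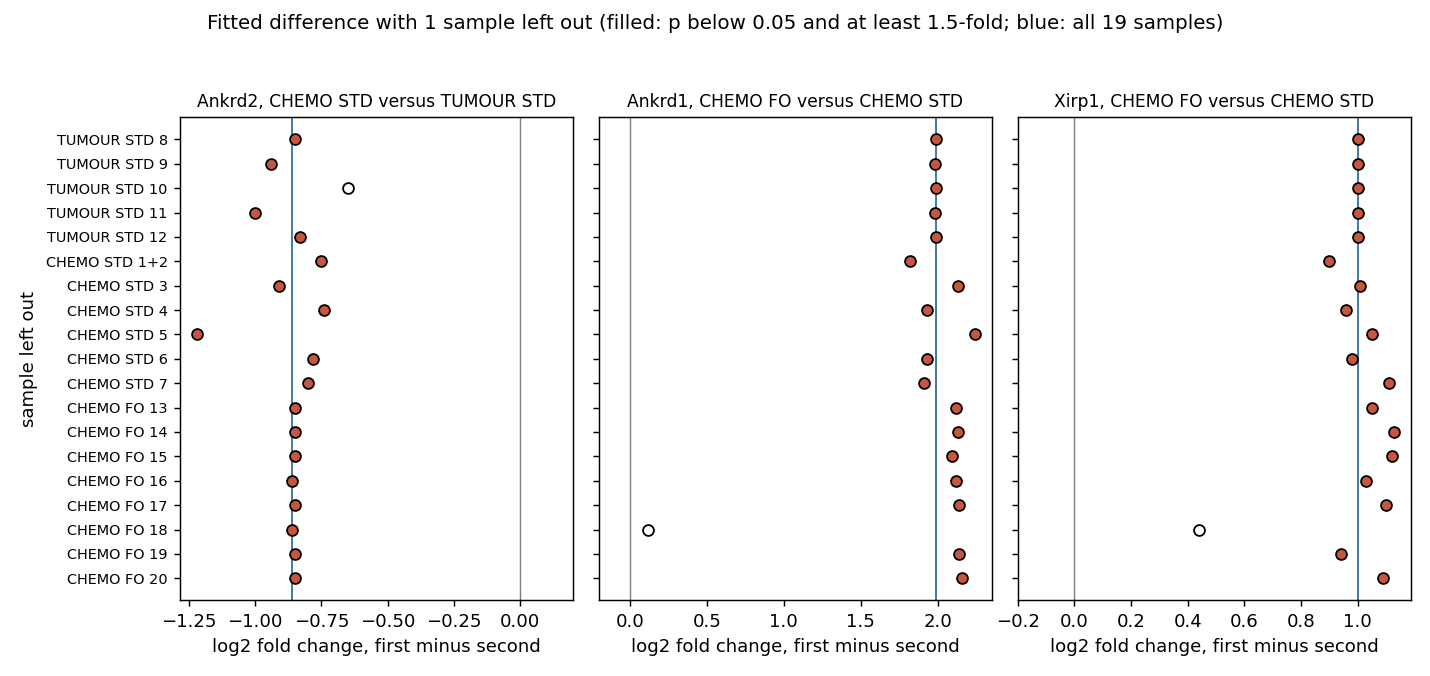
Fitted log2 fold change (x axis) of the 3 called differences when each sample (y axis) was left out; filled points passed an unadjusted p below 0.05 with at least 1.5-fold and the blue line is the value over all 19 samples. Ankrd2 moves to -0.65 without TUMOUR STD 10, and Ankrd1 and Xirp1 move to 0.12 and 0.44 without CHEMO FO 18, the open points.

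Ankrd23, which encodes the diabetes-related ankyrin repeat protein, was not called in any of the 3 comparisons. Its level was 1420, 1170, 688, 1730 and 671 CPM in TUMOUR STD 8 to 12, so that 2 of the 5 lay below every CHEMO STD sample. CHEMO STD covered 1070 to 1710 CPM with a median of 1480 CPM, and CHEMO FO 847 to 1990 CPM with a median of 1210 CPM. The log2 FC was 0.36 (interval -0.13 to 0.85, adjusted p = 0.728 in edgeR) for CHEMO STD against TUMOUR STD, -0.22 (-0.65 to 0.21) for the diets and 0.14 (-0.32 to 0.6) for CHEMO FO against TUMOUR STD.

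Of the Xin repeat genes, Xirp1, an early responder to fibre damage, had 346, 307, 540, 561 and 376 CPM in TUMOUR STD 8 to 12. It had 237, 382, 317, 442, 340 and 516 CPM in CHEMO STD 1+2 and 3 to 7. In CHEMO FO the lowest sample had 274 CPM, the median was 499 CPM and the highest, CHEMO FO 18, had 2410 CPM, followed by 933 CPM in CHEMO FO 19. Of the 8 CHEMO FO samples, 4 lay above the highest CHEMO STD sample and 4 within the range of that group. The means were 742 ± 706 CPM and 372 ± 97.7 CPM, with a log2 FC of 1 (SE 0.38, interval 0.21 to 1.78) and an adjusted p of 0.974 in edgeR. The exact permutation test gave a difference of 0.66 with p = 0.161. Without CHEMO FO 18 the log2 FC was 0.44, and without both CHEMO FO 18 and 19, a choice made after the values were seen, 0.22. Neither passed the thresholds.

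Against TUMOUR STD, Xirp1 in CHEMO FO gave a log2 FC of 0.8 (interval -0.03 to 1.63, adjusted p = 0.554 in edgeR), and 0.25 without CHEMO FO 18. The thresholds were passed with any of TUMOUR STD 11 or CHEMO FO 14, 15, 17 or 20 left out, at 0.9 to 0.94. CHEMO STD and TUMOUR STD differed by -0.2 (-1.05 to 0.66). The order of the means was CHEMO FO, TUMOUR STD and CHEMO STD, and neighbours did not differ beyond their spread.

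Xirp2, the long member of the Xin family, had a different set of extreme samples. Its level was 4440, 2840, 765, 2410 and 562 CPM in TUMOUR STD 8 to 12 and 1210, 4600, 4120, 5020, 3850 and 2030 CPM in CHEMO STD 1+2 and 3 to 7. In CHEMO FO it ran from 833 CPM (CHEMO FO 16) to 5100 CPM (CHEMO FO 15) with a median of 2020 CPM. TUMOUR STD 10 and 12, the lowest of their group for Xirp2, were also the lowest for Ankrd23, and CHEMO FO 16 and CHEMO STD 1+2 were the lowest of their groups for both genes. CHEMO STD 1+2 and CHEMO FO 16 and TUMOUR STD 10 and 12 were also the samples with the highest tendon and myotendinous junction levels of their groups, at 9960, 6200, 11600 and 12300 CPM summed over 11 genes, against 674 to 5260 CPM in the others. Whether tendon content bears on Xirp2 was not tested. The log2 FC was 0.66 (interval -0.31 to 1.62, adjusted p = 0.734 in edgeR) for CHEMO STD against TUMOUR STD, -0.47 (-1.32 to 0.37) for the diets and 0.18 (-0.72 to 1.09) for CHEMO FO against TUMOUR STD. The first of these passed the thresholds without TUMOUR STD 8, at 1.08, and without TUMOUR STD 12 it was 0.41.

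**Figure D4:**
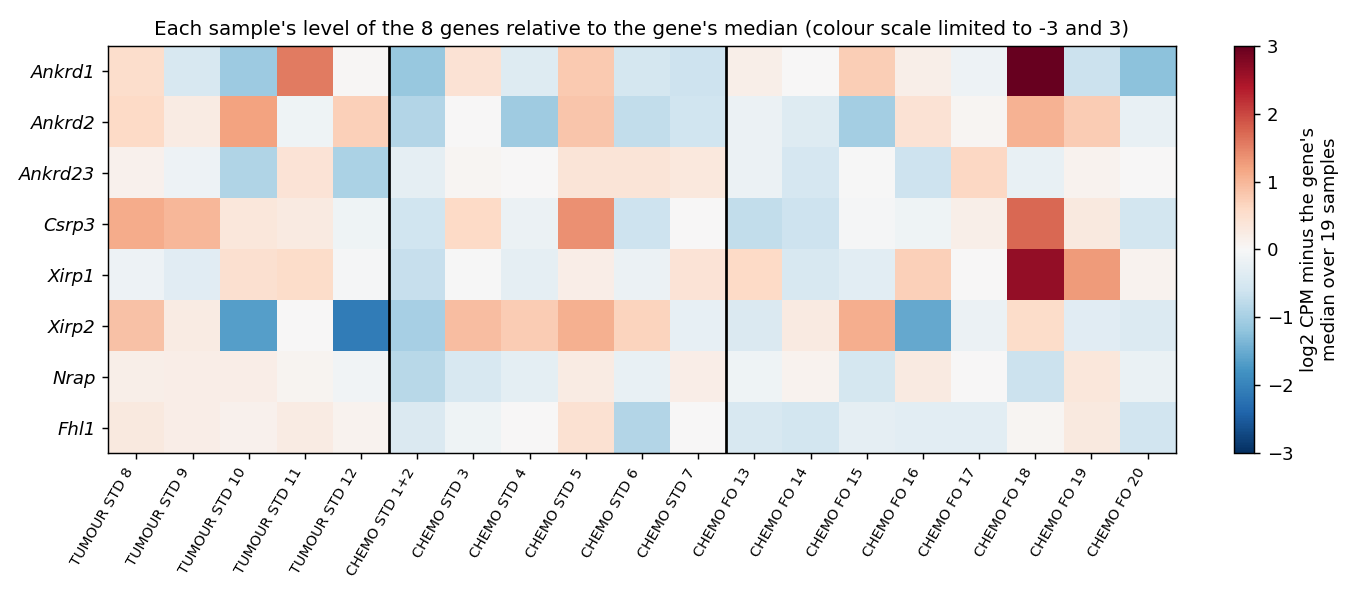
Log2 CPM of each gene (rows) in each of the 19 samples (columns), minus the gene's median over all samples, with black lines between groups and a colour scale limited to -3 and 3. CHEMO FO 18 is high for Ankrd1, Xirp1 and Csrp3, TUMOUR STD 10 and 12 are low for Xirp2 and Ankrd23, and CHEMO STD 1+2 is low for all 8 genes.

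The LIM protein genes were lower on average in the chemotherapy groups than in TUMOUR STD, without passing the thresholds. Fhl1 lay within a narrow range in TUMOUR STD, at 2870, 2680, 2550, 2790 and 2550 CPM in samples 8 to 12. In CHEMO STD it had 1730, 2150, 2350, 3210, 1280 and 2360 CPM in samples 1+2 and 3 to 7, with 5 of 6 samples below the lowest TUMOUR STD sample. In CHEMO FO it ran from 1570 to 2880 CPM with a median of 1890 CPM, and 7 of 8 samples lay below the lowest TUMOUR STD sample. For CHEMO FO against TUMOUR STD the means were 1980 ± 454 CPM (n = 8) and 2690 ± 142 CPM (n = 5), a 1.36-fold difference with a log2 FC of -0.44 (SE 0.178, interval -0.81 to -0.07) and an adjusted p of 0.515 in edgeR. The exact permutation test gave a difference of -0.47 with p = 0.0117. This was the smallest p of the 24 such tests, which were not adjusted over these genes alone. With each sample left out, the log2 FC ran from -0.53 to -0.39. It was -0.3 (-0.7 to 0.09, adjusted p = 0.727 in edgeR) for CHEMO STD against TUMOUR STD and -0.14 (-0.49 to 0.22) for the diets.

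Csrp3 had 133, 123, 78.3, 74.3 and 56.4 CPM in TUMOUR STD 8 to 12 and 40.9, 93.6, 54.6, 161, 39.9 and 61.8 CPM in CHEMO STD 1+2 and 3 to 7. In CHEMO FO 7 samples lay between 36.9 and 75.9 CPM, and CHEMO FO 18 had 205 CPM. The 3 groups overlapped over most of their range. For CHEMO FO against TUMOUR STD the log2 FC was -0.33 (interval -1.12 to 0.45, adjusted p = 0.803 in edgeR), and without CHEMO FO 18 it was -0.76 and passed the thresholds. It was -0.32 (-1.16 to 0.52) for CHEMO STD against TUMOUR STD. For the diets it was -0.01 (-0.77 to 0.74), or -0.44 without CHEMO FO 18.

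Nrap, at 2350, 2400, 2380, 2190 and 1940 CPM in TUMOUR STD 8 to 12, varied little in that group (SD 8.49% of the mean). CHEMO STD had 1180, 1490, 1700, 2480, 1790 and 2390 CPM in samples 1+2 and 3 to 7, and CHEMO FO ran from 1320 CPM, in CHEMO FO 18, to 2640 CPM with a median of 2000 CPM. In CHEMO STD 4 of 6 samples lay below the TUMOUR STD range. The log2 FC was -0.3 (interval -0.69 to 0.1, adjusted p = 0.728 in edgeR) for CHEMO STD against TUMOUR STD, 0.12 (-0.24 to 0.47) for the diets and -0.18 (-0.55 to 0.19) for CHEMO FO against TUMOUR STD. For Nrap as for Fhl1, the SD of TUMOUR STD (8.49% and 5.3% of the mean) was below that of CHEMO STD (27.7% and 29.9%) and CHEMO FO (23.6% and 22.9%), a difference in spread that was not tested.

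To see how the genes varied among themselves, log2 CPM was taken minus its group mean over the 19 samples, and 28 pairs were compared with 100000 permutations within groups. Pearson's r passed an adjusted p below 0.05 for 2 pairs. Csrp3 and Fhl1 had r = 0.74 (permutation p = 0.00097, adjusted p = 0.0272) and Spearman's rho = 0.78 (permutation p = 0.00034, adjusted p = 0.00952), and r was 0.65 without the 2 samples farthest from the median of Csrp3. Ankrd2 and Xirp1 had r = 0.65 (permutation p = 0.00286, adjusted p = 0.04) and rho = 0.62 (permutation p = 0.00727, adjusted p = 0.0679), with r = 0.59 without the 2 farthest samples. In CHEMO STD and CHEMO FO alone, the groups with at least 6 samples, the first pair had r = 0.83 and 0.73 and the second 0.53 and 0.87. In TUMOUR STD alone, with 5 samples, the first pair had r = 0.65 and the second 0.06. Without CHEMO FO 18, the r of Ankrd2 and Xirp1 over the groups was 0.57.

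Some pairs rested on CHEMO FO 18 or a few other samples. Ankrd1 and Xirp1 had r = 0.64 (permutation p = 0.051, adjusted p = 0.139) and rho = 0.29 (permutation p = 0.25, adjusted p = 0.412), and r = -0.09 without the 2 samples farthest from the median of Ankrd1. Ankrd23 and Xirp2 had r = 0.61 (permutation p = 0.0275, adjusted p = 0.0924) and rho = 0.51 (permutation p = 0.0633, adjusted p = 0.197), and r = 0.29 without TUMOUR STD 10 and 12. Xirp1 and Xirp2 had r = -0.03 (permutation p = 0.895, adjusted p = 0.954) and rho = -0.12 (permutation p = 0.628, adjusted p = 0.75), and Ankrd1 and Ankrd2 had r = 0.3 (permutation p = 0.248, adjusted p = 0.439) and rho = 0.12 (permutation p = 0.643, adjusted p = 0.75), so neither pair of close relatives passed.

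**Figure D5:**
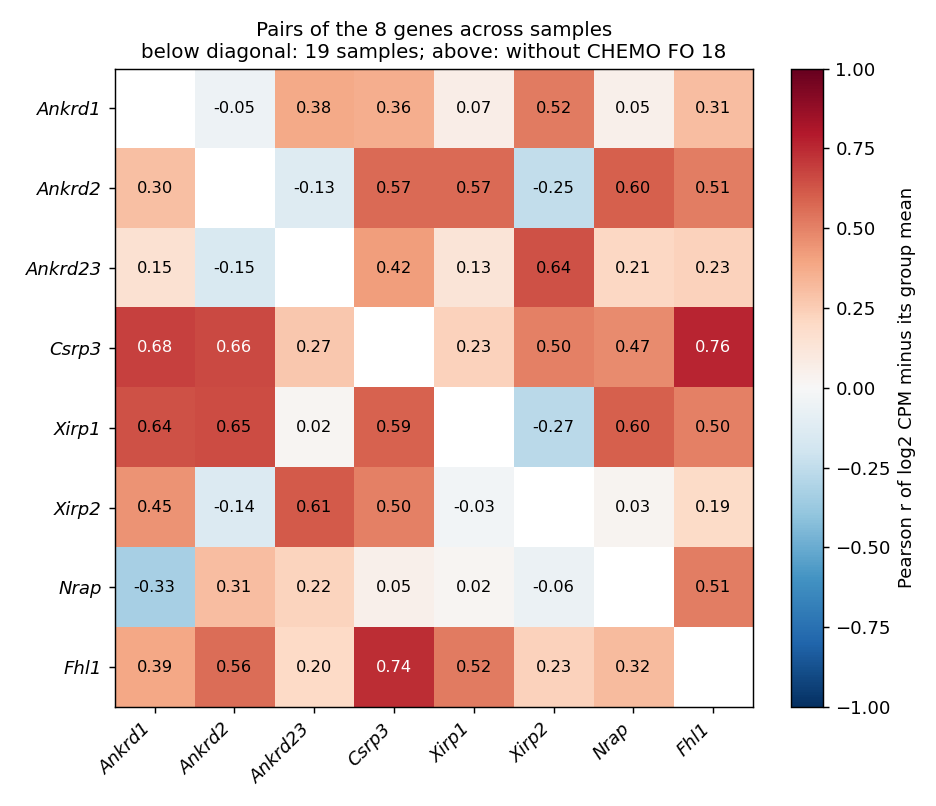
Pearson r of log2 CPM minus its group mean for each pair of the 8 genes, over 19 samples below the diagonal and without CHEMO FO 18 above it. Csrp3 with Fhl1 is at 0.74 and 0.76, and Ankrd1 with Xirp1 is at 0.64 and 0.07.

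The genes outside the set whose pattern was most like that of each member, by the same Pearson r over 19 samples among 7473 genes, are given as a description. For Ankrd2 they were Hspb7 (0.92) and Cryab (0.85), and for Xirp1 Hspb8 (0.95) and Rrad (0.91). Without CHEMO FO 18, Hspb7 and Cryab ranked 1 and 10, at 0.9 and 0.82. Hspb8 and Rrad then ranked 2 and 6, at 0.89 and 0.78. Hspb7, Cryab and Hspb8 encode small heat shock proteins, and Rrad a small GTP-binding protein. For Ankrd1 they were the proteasome subunit genes Psmc1 (0.9) and Psma1 (0.89), which without CHEMO FO 18 ranked 30 and 61, at 0.68 and 0.65. For Csrp3 they were Psmd12 (0.9), another proteasome subunit gene, and Celf1 (0.89), which without CHEMO FO 18 ranked 2 and 4, at 0.84 and 0.81. Xirp2 was nearest to Bod1l1 (0.97) and Upf2 (0.96), and Ankrd23 to Palmd (0.91) and Fbxo22 (0.84). Nrap was nearest to Smtnl1 (0.83) and Tbc1d1 (0.83), and Fhl1 to Kdm1b (0.85) and Klhl34 (0.82).

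Other genes of the same structures gave few calls. Of 21 partners at the Z-disc, titin and costamere, 1 was called in CHEMO STD against TUMOUR STD, beside 2.38% of all genes. It was the filamin gene Flnc (log2 FC -0.79, adjusted p = 0.719 in edgeR). Flnc was 1180 to 1920 CPM in CHEMO STD and 1970 to 3290 CPM in TUMOUR STD. Its ranges thus lay narrowly apart, as did those of 0.495% of all genes. None of the partners was called in the other comparisons, and their medians were -0.06, 0.08 and 0.02 in the order used above. Of 8 relatives in the CRP, FHL and nebulin families none was called in any comparison (medians -0.08, 0.06 and 0), and the 2 with the highest levels, Neb and Fhl3, had differences of 0.14 and -0.02 in CHEMO STD against TUMOUR STD.

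Genes that answer mechanical or injury signals gave a few calls at the same unadjusted thresholds. Of 12 tested YAP and TEAD genes, Ccn1, a secreted matrix protein and target of YAP, was called in CHEMO STD against TUMOUR STD, with the lower level in CHEMO STD (-0.81, adjusted p = 0.719 in edgeR) and higher in CHEMO FO than in CHEMO STD (0.93, adjusted p = 0.974). Its level was 32 to 39.6 CPM in TUMOUR STD, 10.7 to 31.5 CPM in CHEMO STD and 18.4 to 55.4 CPM in CHEMO FO. The TUMOUR STD and CHEMO STD ranges of Ccn1 also lay narrowly apart. Of 10 tested immediate early genes, Fos and Egr1 were called in CHEMO STD against TUMOUR STD, both lower in CHEMO STD (-1.04 and -0.98, both adjusted p = 0.719 in edgeR). Fos was called higher in CHEMO FO than in CHEMO STD (1.23, adjusted p = 0.974), and Myc higher in CHEMO FO than in TUMOUR STD (1.31, adjusted p = 0.486). Their medians were -0.32, 0.42 and 0.2. Of 9 denervation and regeneration genes, 1 was called, Gadd45a, in CHEMO FO against TUMOUR STD (1.29, adjusted p = 0.516). None was called without CHEMO FO 18, and none without TUMOUR STD 10.

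Markers of other tissues and fibre types were called in each of the 3 comparisons. Tendon and myotendinous junction genes, where Xirp1, Xirp2 and Nrap products are known to lie, were lower in 11 of 11 in CHEMO STD against TUMOUR STD, with 6 called (median -0.88), and without TUMOUR STD 10 the median was -0.55 with 0 called. Against TUMOUR STD, CHEMO FO also had 6 of 11 called lower (median -0.82), and without TUMOUR STD 10 the median was -0.61 with 2 called. Smooth muscle genes had 4 of 8 called lower in each chemotherapy group against TUMOUR STD (medians -0.47 and -0.53), among them Myh11 (-0.93 and -0.91). Without TUMOUR STD 10, 3 were called lower in each of these comparisons (medians -0.37 and -0.48). Without CHEMO FO 18, 3 were called lower in CHEMO FO against TUMOUR STD (median -0.38). In the diet comparison, the myelin genes Mbp (-1.12) and Prx (-0.82) were called lower in CHEMO FO than in CHEMO STD, and Mbp also without CHEMO FO 18. Both were highest in CHEMO STD 1+2 and 7, at 62.8 and 38.9 CPM for Mbp and 32.7 and 23.4 CPM for Prx. The rest of CHEMO STD had 7.03 to 19.6 CPM for Mbp and 7.78 to 11 CPM for Prx. This overlapped CHEMO FO, at 9.18 to 15.2 CPM and 4.19 to 14.6 CPM. Cd163, of 8 macrophage genes, was called higher in CHEMO FO against TUMOUR STD (1.22), with 0 called without CHEMO FO 18. Dsp, the 1 keratinocyte gene tested, was called lower in both chemotherapy groups, with 0 called without TUMOUR STD 10, and Myh6, of 3 tested heart genes, was called lower in CHEMO STD (-0.68). Fast fibre and adipocyte genes had no calls. The adjusted p of every call in this paragraph was at least 0.433 in edgeR. The part of these markers in the members' values was not tested.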

How the data were processed

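Total RNA of gastrocnemius was depleted of rRNA and sequenced by the authors, who deposited raw read counts per gene. The submitters' processing notes name CASAVA 1.9, Trim Galore 0.4.1, FastQC 0.11.4, TopHat2 2.0.10 and Bowtie2, and the authors counted reads in Partek Flow with Ensembl annotation. The genome was Rnor 6, and a strand setting for counting was not given in the sources used here. Unnamed features, 388 of 32883, held 0.102 to 0.272% of the counts and were left out. CHEMO STD 1 and 2 were summed. Genes were kept with filterByExpr (minimum count 10, total 15), scaled by TMM and tested with the quasi-likelihood test of edgeR 4.0.16 in R 4.3.3 over all 19 samples, with Benjamini-Hochberg adjustment over all 11716 genes. Genes were called at an unadjusted p below 0.05 where the fold change reached 1.5. Levels are CPM, and exact permutation tests were two-sided on log2 CPM with a prior count of 2. Alternatives were DESeq2 1.42.0, limma 3.58.1 (voom with sample weights), other scalings and filters, and leaving out samples. All 8 genes were named by a fixed rule, and list genes where called. The genes and lists were chosen with earlier results of these data known. A further marker list is not reported here in full. The fits were tested on simulated data.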

Additional observations from a re-analysis of the deposited data

Results flagged for a closer look

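CHEMO FO 18 lay far from the 7 other samples of its group for 3 of the 8 genes, by the gap to the nearest sample as a share of the group's range, with 0.526 as the limit for 8 samples. The level was 348 CPM for Ankrd1 (ratio 0.938), 205 CPM for Csrp3 (0.769) and 2410 CPM for Xirp1 (0.691). Of 24 gene and group combinations these were the 3 past the limit, and for normally distributed values chance alone gives about 1 in 20 groups. The ratios were taken on CPM and not on log2 CPM, and whether CPM meets that assumption was not tested. All 3 came from a single sample and are not independent of each other.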

How the results depend on the processing

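Of 744 refitted differences (24 differences under 31 alternatives), 695 kept their direction and side of the thresholds, 10 were no longer past them, 16 came to pass them and 23 turned direction, none of these with a call. The cause was not tested. Among the alternatives were samples left out of the group not compared, which bear on a difference only through the shared scaling, filter and spread. Such refits could hardly move a fold change, so the 695 is not a measure of robustness. Direction turned for Csrp3 in CHEMO FO against CHEMO STD without TMM (0.03), without the filter (0.01), with CHEMO STD 1 and 2 separate (0.09) and over samples left out singly (-0.44 to 0.36). In CHEMO FO against TUMOUR STD it turned for Ankrd1 by DESeq2 (-0.41), by voom (-0.42), without CHEMO FO 18 and 19 (-0.33) and over single samples (-0.42 to 1.99), for Xirp2 by voom (-0.03) and over single samples (-0.06 to 0.61), and for Ankrd23 over single samples (0 to 0.34). Over single samples it also turned for Ankrd1 in CHEMO STD against TUMOUR STD (-0.79 to 0.01) and Fhl1 in CHEMO FO against CHEMO STD (-0.24 to 0.01). Leaving out CHEMO FO 18 and 19 together was chosen after seeing the data. Of the 8 genes, single samples left out gave 0 to 2 called in CHEMO STD against TUMOUR STD, 0 to 3 in CHEMO FO against CHEMO STD and 0 to 2 in CHEMO FO against TUMOUR STD. In CHEMO FO against CHEMO STD, DESeq2 called 1 (Xirp1), voom 1 (Xirp2) and the fit without CHEMO FO 18 and 19 called 0. In CHEMO FO against TUMOUR STD, voom called 1 (Csrp3), the fit without the filter 1 (Xirp1) and that without both samples 3 (Fhl1, Ankrd2 and Csrp3). Over all genes, calls without the filter were 971, 722 and 1116 in the order CHEMO STD against TUMOUR STD, CHEMO FO against CHEMO STD and CHEMO FO against TUMOUR STD. DESeq2 with outlying counts kept gave 429 and 349 in the first and second, DESeq2 314 in the second, and the fit without CHEMO FO 18 and 19 272 in the third. Single samples left out gave 161 to 603, 153 to 266 and 273 to 584. No paired analysis was possible because the groups share no replicate numbers.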
